A study of Homo sapiens with 27 samples.

Results

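Ribosome footprints were set against mRNA in untreated, cycling IMR90 cells, an established line of normal human fetal lung fibroblasts. The comparison took every library that the labels describe as cycling, 3 of Ribo-seq and 2 of RNA-seq, out of 27 libraries in the series. No treatment was given in either group, and the labels list the genotype as WT. The cells grew in high-glucose DMEM with 10% fetal bovine serum and were harvested at 40 to 60% confluency. All 5 libraries came from a lysis buffer that holds cycloheximide, which stalls elongating ribosomes, and 50 µg of lysate went to each assay. For Ribo-seq, RNase I was applied at 4 °C, for 40 min in the sample labels and for 20 min in the series text, and fragments of 25 to 40 nt were cut from a gel. Every library is of the same cell line, and the labels do not say whether replicates were separate cultures, so the p-values measure the spread between these libraries, which may be technical.

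Ribosome profiling sequences the stretch of mRNA that each ribosome shields from RNase, so the footprints of a gene depend on how much of its mRNA there is and on how densely ribosomes sit on it. Dividing footprints by mRNA removes the first of these and leaves a measure often called translational efficiency. Cells hold some mRNAs away from ribosomes through features of the message: a pyrimidine run at the cap (the TOP motif of ribosomal protein and elongation factor mRNAs, read by LARP1 under mTOR), a hairpin bound by iron regulatory proteins, or short reading frames upstream of the main one. Here RNA-seq covers whole exons and Ribo-seq mainly the coding part, so a ratio of 1 is a typical gene of these data and not an absolute number of ribosomes.

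The wider study profiled IMR90 cells in 5 states: cycling, contact-inhibited quiescent, senescent after irradiation or etoposide, and treated with thapsigargin. Total gene counts of the cycling libraries were 29286089 and 20635503 in RNA-seq and 10025423, 14439646 and 9874835 in Ribo-seq. Reads mapping to several places, which enter no gene's count, were 13.2% and 33.4% of reads in the RNA-seq libraries and 26.5 to 31.9% in Ribo-seq. The counts of RNA-seq follow a list of 62703 gene IDs and those of cycling Ribo-seq a list of 60664, with 60534 IDs in both. A gene drawn differently in the lists can differ between the assays for that reason, and its part in a ratio was not tested. Chi-square divided by its degrees of freedom was 19.0 between the RNA-seq libraries and 10.1 to 12.2 between those of Ribo-seq, where sampling noise alone gives about 1, so no library was a copy of another. All 10 fibroblast markers checked were at 1 CPM (counts per 1000000 protein-coding counts, after TMM scaling) or more in both assays, and their summed level was 9914 to 13884 CPM in RNA-seq and 36406 to 37993 CPM in Ribo-seq. Of 16 epithelial, endothelial and leukocyte markers, CLDN4 alone reached 1 CPM, and 8 were at 0 in all 5 libraries.

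Of 19320 protein-coding IDs in both lists, 11736 had a mean of the assay means of at least 1 CPM and were tested, and 7584 were not. A gene is called high here when its ratio of footprints to mRNA was at least 2 at a Benjamini-Hochberg adjusted p under 0.05 in edgeR's quasi-likelihood test, and low when the ratio was at most 0.5. There were 1656 high genes (14.1%) and 2274 low genes (19.4%). The counts of high and low genes in each class below are to be read against these shares. At any size of ratio, 8478 genes (72.2%) passed the test, and 4548 of these were within 2-fold. How many of all genes had no overlap between the assays was not counted, so its absence in a named gene is description only. The median log2 ratio over all genes was -0.01, the 5th percentile was -2.29 and the 95th percentile was 1.60, which as ratios are 0.204 and 3.04. Scaling by library totals in place of TMM moved the median of all genes by -0.13, so class medians below are given relative to the median of all genes.

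Across 10275 genes, the log2 levels of the RNA-seq libraries had a Pearson r of 0.99 with each other, and those of the Ribo-seq libraries 0.988 to 0.990. Between an RNA-seq and a Ribo-seq library, r was 0.755 to 0.778. The points are genes of the same libraries, so these values describe the libraries and carry no p.

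The genes with most footprint reads were COL1A1 and COL1A2, the chains of type I collagen, then VIM (vimentin), FN1 (fibronectin) and ACTB (beta-actin). COL1A1 had a mean of 12664 CPM of footprints and 1508 CPM of mRNA, where it ranked 49. The genes with most mRNA reads were EEF1A1, the elongation factor that brings tRNA to the ribosome, then FTL (ferritin light chain), GAPDH, ACTB and VIM. EEF1A1 had a mean of 18608 CPM of mRNA and 355 CPM of footprints, where it ranked 484. Counts were not divided by gene length, so these ranks order reads and not molecules.

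**Figure D1:**
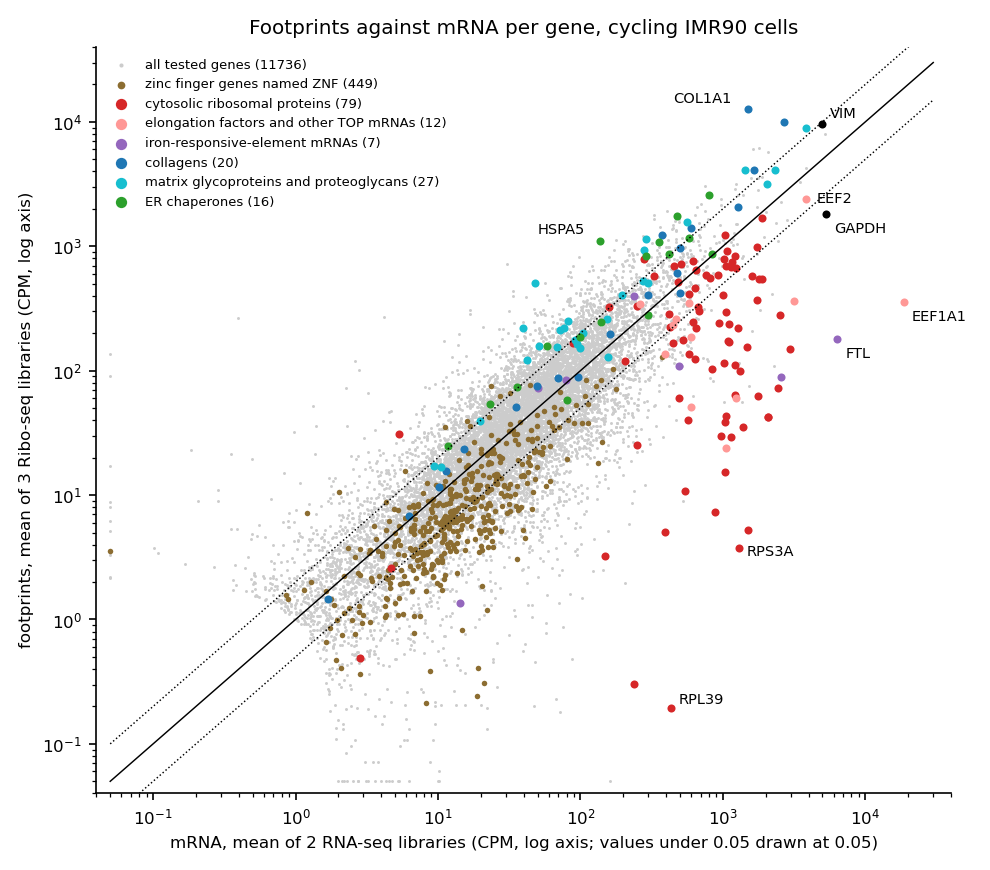
Mean footprint level (y axis, CPM, n = 3 libraries) against mean mRNA level (x axis, CPM, n = 2 libraries) of the protein-coding genes tested, on log axes, with values under 0.05 CPM drawn at 0.05. The solid line is equality and the dotted lines are 2-fold either side; 14.1% of genes were called high and 19.4% low, and COL1A1 and EEF1A1 lie far on opposite sides.

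Start sequences are shown because 2 of the classes with the lowest medians hold TOP mRNAs. Each line gives 10 bases before and 20 bases from the start that RefSeq annotates (GRCh38.p14, 5′ to 3′ on the gene's strand). Capitals mark a run of pyrimidines (C or T) that opens with C exactly at the start and is at least 5 bases long. RPS6, RPLP0, EEF1A1, EEF2 and TPT1 carry the run. RPL3, FTL, PKM, VIM and FN1 do not, and RPL3 is a ribosomal protein gene whose annotated start lacks it.
RPS6: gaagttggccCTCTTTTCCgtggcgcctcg
RPLP0: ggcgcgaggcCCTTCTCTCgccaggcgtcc
EEF1A1: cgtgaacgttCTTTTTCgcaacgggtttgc
EEF2: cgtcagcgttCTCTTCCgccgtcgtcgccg
TPT1: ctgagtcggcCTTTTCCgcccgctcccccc
RPL3: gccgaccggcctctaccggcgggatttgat
FTL: acgtcccctcgcagttcggcggtcccgcgg
PKM: gtggctccttgcacagcagctgcacgcgcc
VIM: atcgtgatctgggaggcccacgtatggcgc
FN1: gcgctcggacgcccgcgccggctgtgctgc

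These windows lie at chr9:19380217-19380246 for RPS6, chr12:120201092-120201121 for RPLP0, chr6:73521013-73521042 for EEF1A1, chr19:3985444-3985473 for EEF2 and chr13:45341164-45341193 for TPT1. The others are chr22:39319604-39319633 for RPL3, chr19:48965299-48965328 for FTL, chr15:72231171-72231200 for PKM, chr10:17228231-17228260 for VIM and chr2:215436049-215436078 for FN1. FTL and VIM are on the plus strand and the other genes on the minus strand. Of 9733 tested genes with a start sequence, 747 (7.67%) held the run, against 47 of 63 ribosomal protein genes (74.6%) and 7 of 7 elongation factor and other TOP genes. Among the ribosomal protein genes, the median log2 ratio was -1.72 with the run and -2.93 without it. Among all other genes it was -0.20 with the run and 0.01 without, and for those with no named pseudogene -0.10 and 0.03. A match is a string of letters in an annotated window, and the start that these cells use was not measured.

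Cytosolic ribosomal proteins carried few footprints for their mRNA. Of 79 genes tested out of 80, 49 were low (62.0%, against 19.4% of all genes) and 2 high, with a median of -1.78 relative to all genes and of -1.94 to -1.46 over the 6 pairs of an RNA-seq and a Ribo-seq library. The large subunit had 30 of 47 genes low at a median log2 ratio of -2.24, and the small subunit 19 of 32 at -1.65. The class held 8.06% and 7.74% of protein-coding counts in the RNA-seq libraries and 2.49%, 2.21% and 2.58% in Ribo-seq. The shares did not overlap, with an exact two-sided permutation p of 0.2, the smallest that 3 libraries against 2 can give. Every class except HOX genes and solute carriers had this same p, so shares without overlap are not particular to ribosomal proteins.

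RPS6 (ENSG00000137154), a small-subunit protein phosphorylated downstream of mTOR, was at 1967 and 1817 CPM in RNA-seq and at 579, 531 and 526 CPM in Ribo-seq. Its log2 ratio was -1.80 ± 0.12 (SE; adjusted p = 5.82e-10), and the assays did not overlap. RPLP0 (ENSG00000089157), the scaffold of the ribosomal stalk, was at 3019 and 2881 CPM against 135, 127 and 182 CPM, a log2 ratio of -4.32 ± 0.16 (adjusted p = 1.63e-12). The gap for RPLP0 was 19.9-fold and for RPS6 3.47-fold.

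Some ribosomal protein genes were not called low, and 2 were high. RPL3 (ENSG00000100316), near the peptidyl transferase centre, was at 1866 and 1618 CPM of mRNA and 1177, 910.3 and 859.7 CPM of footprints, with a log2 ratio of -0.83 ± 0.14. RACK1 (ENSG00000204628), a signalling scaffold on the small subunit, was at 1910.5 and 1871 CPM of mRNA and 1664, 1575 and 1872 CPM of footprints, and the assays overlapped. The high calls were RPS29 and RPL17. RPS29 had 293 and 262 CPM of mRNA and 884, 815 and 673 CPM of footprints, while RPL17 had 6.19 and 4.46 CPM of mRNA and 35.7, 30 and 27.3 CPM of footprints. RPL17 overlaps a readthrough gene, and reads that fall on both enter neither count, so its level is uncertain.

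The lowest ratios of the class were far below the rest. RPL39 was at 458 and 401 CPM of mRNA and at 0.106, 0.147 and 0.324 CPM of footprints, with a log2 ratio of -11.12 ± 0.22 (adjusted p = 2.17e-16). RPS28 gave -9.69 ± 0.24, RPS3A -8.44 ± 0.17, RPL7 -8.16 ± 0.15 and RPL21 -6.92 ± 0.14. For RPS28, leaving out Ribo-seq replicate 3, whose level was 0.649 CPM against 0.106 and 0.147 CPM, moved the value to -10.76. RPS26 was at -6.26 ± 0.15, RPS27 at -6.08 ± 0.14 and RPS2 at -5.62 ± 0.16, and RPL41, the shortest ribosomal protein, at -3.04 ± 0.12. The RefSeq table names 40 pseudogenes after RPL39, 9 after RPS28, 54 after RPS3A, 61 after RPL7, 137 after RPL21, 59 after RPS26, 30 after RPS27, 55 after RPS2 and 7 after RPL41.

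Elongation factors and other TOP mRNAs had 7 low genes and no high gene among 12 tested of 13, with a median of -1.59 relative to all genes. EEF1A1 (ENSG00000156508) was at 18462 and 18754 CPM in RNA-seq and 418, 349 and 297 CPM in Ribo-seq, a log2 ratio of -5.71 ± 0.17 (adjusted p = 3.24e-14). EEF2 (ENSG00000167658), which moves the ribosome along the message, was at 3731 and 3950.4 CPM against 2651, 2076 and 2441 CPM, a log2 ratio of -0.68 ± 0.13 (adjusted p = 0.000212). The assays did not overlap for either factor, but the gap was 52.5-fold for EEF1A1 and 1.61-fold for EEF2. EEF1A1 has 50 pseudogenes named after it in the RefSeq table and EEF2 has none.

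TPT1 (ENSG00000133112), a small growth-related protein, was at 3479.7 and 2805 CPM of mRNA and 347, 313 and 421 CPM of footprints, 8.72-fold lower. PABPC1 (ENSG00000070756), which binds poly(A) tails, was at 541 and 652 CPM of mRNA and 190.0, 159.9 and 213 CPM of footprints, a log2 ratio of -1.67 ± 0.13. The other low genes were HNRNPA1, EIF4B, EEF1B2 and EIF3F, with log2 ratios of -5.48, -4.35, -3.55 and -1.54. EIF3H, the gene of the list with the highest ratio, was at 0.39. Without the genes that have a named pseudogene, 2 of the 12 remained, with a median of -0.17 relative to all tested genes without one.

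Pseudogenes named after a gene were counted because reads from such copies and their parent can map to several places. Of the tested genes, 9781 had none, with a median log2 ratio of 0.02 and 17.7% low. The share of low genes was 22.6% with 1 named pseudogene, 25.1% with 2 to 3, 35.2% with 4 to 9 and 55.3% among 152 genes with 10 or more, whose median was -1.44. All 79 ribosomal protein genes tested had at least 1. Their median was -0.64 for 23 genes with up to 9, -1.76 for 30 genes with 10 to 29 and -3.77 for 26 genes with 30 or more. Across these 79 genes, Pearson's r between the number and the log2 ratio was -0.40 and Spearman's rho -0.44, given as a description. In the classes below, medians over members without a named pseudogene were taken relative to all tested genes without one. They were 0.64 for initiation factors, 0.88 for mitochondrial ribosomal proteins and 1.11 for the proteasome. For actin and contractile genes the value was 1.12 and for SR proteins and hnRNPs 1.07. Each was higher than the median of all tested members relative to all genes. For cytosolic chaperones it was 0.61, lower than the 0.86 of all tested members relative to all genes. The part of the copies in the low ratios of ribosomal protein and TOP genes was not tested.

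**Figure D2:**
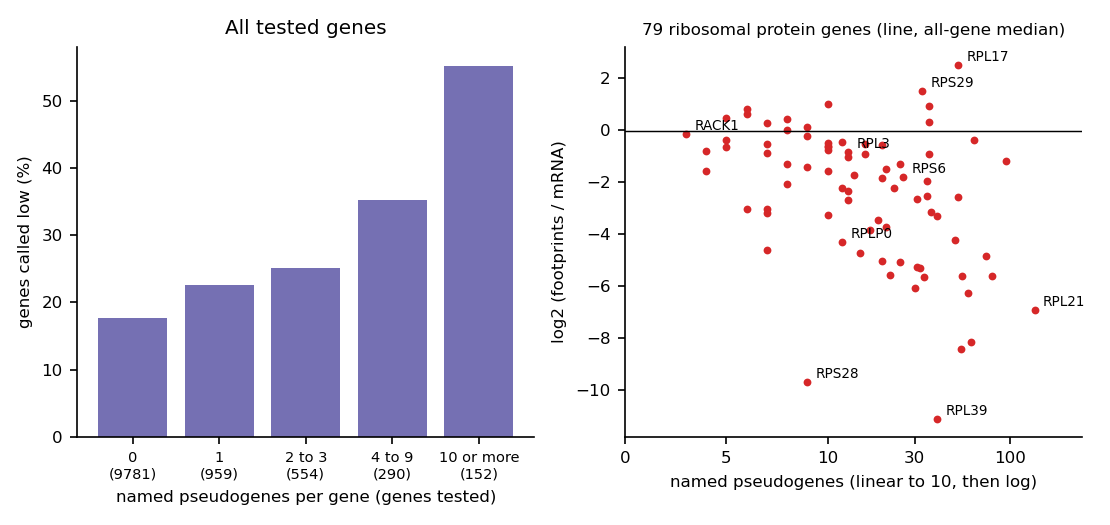
Left, the share of tested genes called low (y axis, %) by the number of pseudogenes named after the gene; right, log2 ratio of footprints to mRNA (y axis) of the 79 ribosomal protein genes by that number (x axis), 1 point per gene. The share of low genes went from 17.7% with none to 55.3% with 10 or more.

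Initiation factors, which load ribosomes on the message, had 6 high and 6 low of 31 and a median of 0.46 relative to all genes. Each count is 19.4% of the class, against 14.1% high and 19.4% low of all genes. EIF1 (ENSG00000173812), which guards start codon choice, was at 159 and 197 CPM of mRNA and 515, 565 and 617 CPM of footprints, 3.18-fold higher (adjusted p = 7.97e-09). EIF5B, which joins the subunits, had 52 and 60.9 CPM of mRNA and 246, 247 and 205 CPM of footprints. EIF2S2, the beta subunit of eIF2, had 289 and 272 CPM of mRNA and 57.8, 55.2 and 56.6 CPM of footprints, 4.97-fold lower. EIF4G2 (ENSG00000110321), a factor related to eIF4G, had a log2 ratio of -0.99 ± 0.12 and lay just outside the limit for a low call. EIF5A (ENSG00000132507), the factor that carries hypusine, had 0.68 ± 0.12.

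Cytosolic tRNA synthetases, which charge tRNAs, had 7 high genes and no low gene of 20, with a median of 0.96 relative to all genes. AARS1 had the highest ratio, with 160.2 and 163 CPM of mRNA and 499, 466 and 493 CPM of footprints, 3-fold higher. QARS1 had the lowest, with 164 and 187 CPM against 164, 158 and 169 CPM, and the assays overlapped. The log2 ratios of all 20 lay between -0.10 and 1.59.

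**Figure D3:**
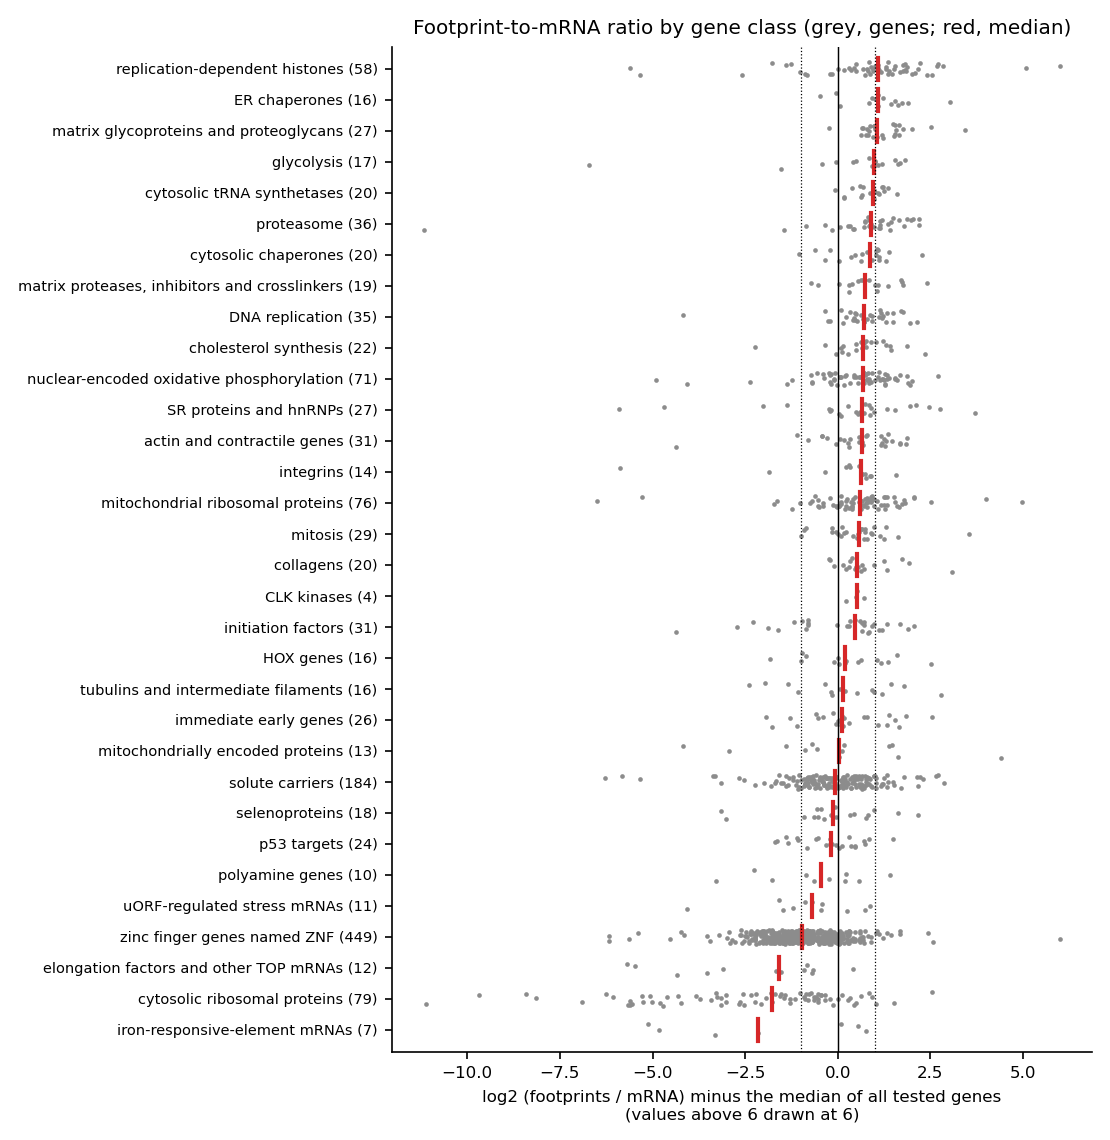
Log2 ratio of footprints to mRNA minus the median of all genes (x axis) for the members of 32 gene classes (y axis), with a grey point per gene and a red mark at the class median; values above 6 are drawn at 6. Class medians went from -2.15 in mRNAs with an iron-responsive element to 1.09 in replication-dependent histones.

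mRNAs with an iron-responsive element had the lowest class median, -2.15 relative to all genes, with 4 low and no high gene of 7. The hairpin lies before the coding part in genes such as FTL, FTH1, SLC40A1 and EPAS1, where a bound regulatory protein blocks initiation, and after it in TFRC and SLC11A2, where it protects the mRNA. The median log2 ratio was -3.34 in the 5 tested genes of the first kind and 0.63 in the other 2. The 4 genes of the list without a named pseudogene were EPAS1 and SLC40A1 of the first kind and TFRC and SLC11A2 of the second. Their median was -0.84 relative to all tested genes without a named pseudogene. It lies between the 2 kinds and describes neither.

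FTL (ENSG00000087086) was at 6259 and 6492 CPM of mRNA and 163, 164 and 215 CPM of footprints, a log2 ratio of -5.14 ± 0.16 (adjusted p = 3.62e-14). FTH1 (ENSG00000167996), the ferritin heavy chain, was at 2423 and 2686 CPM against 86.5, 86 and 95.9 CPM, a log2 ratio of -4.84 ± 0.13 (adjusted p = 1.02e-14). Footprints of these ferritin chains were 35.3-fold and 28.6-fold lower than their mRNA, in every library. They have 20 and 27 named pseudogenes, and FTH1 was at -4.12 when counted without strand. EPAS1 and SLC40A1 have none, and were 4.48-fold and 10.1-fold lower.

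EPAS1 (ENSG00000116016), the hypoxia factor HIF-2 alpha, was at 452 and 533 CPM of mRNA and 113, 114 and 103 CPM of footprints. SLC40A1 (ENSG00000138449), the iron exporter ferroportin, was at 12.1 and 16.3 CPM of mRNA and 1.92, 1.54 and 0.649 CPM of footprints. TFRC (ENSG00000072274), the transferrin receptor, was at 235 and 240.0 CPM of mRNA and 365, 441 and 379 CPM of footprints, a log2 ratio of 0.73 ± 0.12 (adjusted p = 3.82e-05), in the opposite direction to the ferritins.

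mRNAs of the integrated stress response that carry upstream reading frames had 4 low genes and no high gene of 11, with a median of -0.69 relative to all genes. ATF4 (ENSG00000128272), the response's main transcription factor, was at 556 and 518 CPM of mRNA and 184, 177 and 208 CPM of footprints, a log2 ratio of -1.50 ± 0.12 (adjusted p = 4.32e-09). DDIT3 (ENSG00000175197), or CHOP, was at 40 and 37.4 CPM against 11, 11.4 and 15.9 CPM, with -1.61 ± 0.16 (adjusted p = 8.33e-08). For both genes the assays did not overlap, and footprints were 2.83-fold and 3.05-fold lower. Footprints on an upstream frame and on the main frame are counted together.

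IFRD1 gave -4.08 ± 0.31 at a low level, 10.6 and 9.41 CPM of mRNA and 0.639, 0.806 and 0.216 CPM of footprints, and MIEF1 -1.23 ± 0.14. PPP1R15A, a phosphatase subunit that reverses eIF2 phosphorylation, was at -0.90 ± 0.18 and its constitutive relative PPP1R15B at -0.47 ± 0.11. SLC35A4 was at -0.44 ± 0.13. EPRS1 and CEBPB were on the other side, at 0.86 ± 0.12 and 0.71 ± 0.12, so the list was not uniform.

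Polyamine genes had 3 low genes and 1 high gene among 10 tested of 11. OAZ1 (ENSG00000104904), the antizyme made by a frameshift that polyamines promote, was at 640.1 and 587 CPM of mRNA and 62.7, 51.7 and 72.6 CPM of footprints, 9.87-fold lower (adjusted p = 2.76e-12). AMD1 (ENSG00000123505), the decarboxylase that feeds spermidine synthesis, was at 223 and 185 CPM of mRNA and 47.7, 38.7 and 40.1 CPM of footprints, 4.84-fold lower. SMS, spermine synthase, was 3.47-fold lower. The median of the list was -0.44 relative to all genes. Over its genes without a named pseudogene it was -0.05, relative to all tested genes without one.

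ODC1 (ENSG00000115758), the first enzyme of the pathway, was at 318 and 247 CPM against 262, 225 and 225 CPM, and the assays overlapped. AZIN1 (ENSG00000155096), which frees ODC1 from antizyme, had a log2 ratio of -0.66 ± 0.11. SRM, spermidine synthase, was the high gene, at 87.6 and 96.2 CPM of mRNA and 236, 221 and 268 CPM of footprints.

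Selenoproteins read a UGA codon as selenocysteine. They had 2 low and 2 high genes among 18 tested of 19, with a median of -0.13 relative to all genes. Each count is 11.1% of those tested, below the 19.4% low and 14.1% high of all genes. SELENOT (ENSG00000198843), of the endoplasmic reticulum, was at 188 and 159 CPM of mRNA and 18.7, 20.4 and 25 CPM of footprints, 8.13-fold lower, and SELENOW was 8.99-fold lower. GPX1 (ENSG00000233276), a cytosolic glutathione peroxidase, went the other way, with 33.4 and 28.1 CPM of mRNA and 102, 79.3 and 102 CPM of footprints, 3.05-fold higher. GPX4, which reduces lipid peroxides, was at -0.58 ± 0.12, and MSRB1 was 4.47-fold higher.

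**Figure D4:**
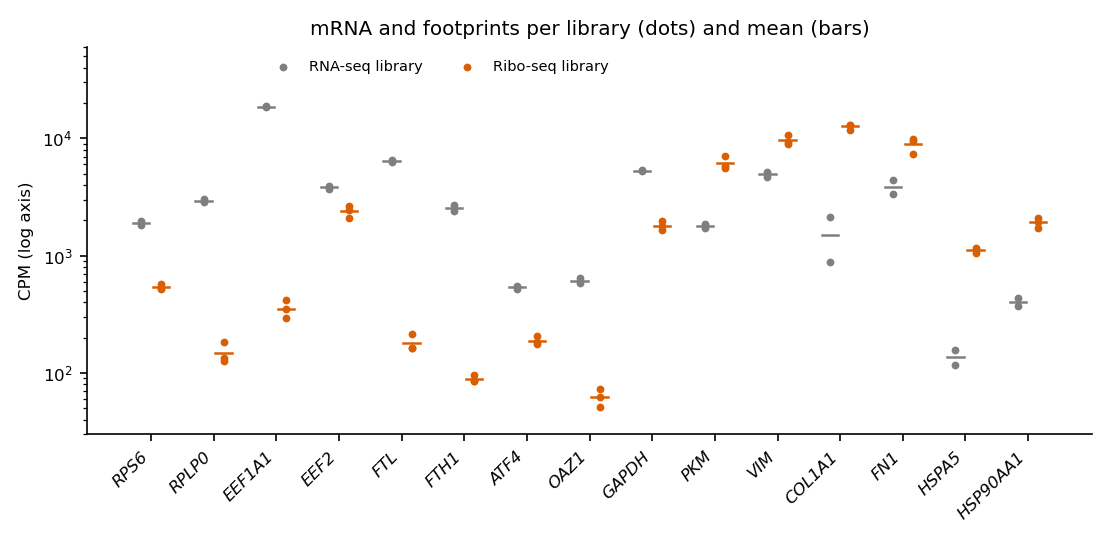
Level in CPM (y axis, log scale) of 15 genes in each of the 5 cycling libraries, with RNA-seq in grey, Ribo-seq in orange and bars at the mean of each assay. FTL, FTH1 and EEF1A1 have footprints far below mRNA in every library, and HSPA5, COL1A1 and HSP90AA1 have footprints above mRNA in every library.

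Collagens had 5 high genes and no low gene of 20, with a median of 0.52 relative to all genes. COL1A1 (ENSG00000108821) was at 888 and 2129 CPM in RNA-seq and 13094, 11851 and 13047 CPM in Ribo-seq. Its log2 ratio was 3.07 ± 0.42 (adjusted p = 0.00141), and the assays did not overlap, but the RNA-seq libraries differed more from each other than the Ribo-seq libraries did. Without RNA-seq replicate 2 the log2 ratio was 3.84, and without replicate 1 it was 2.57.

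COL1A2 (ENSG00000164692), the partner chain, was at 1935 and 3421 CPM of mRNA and 8973, 10256 and 10692 CPM of footprints, a log2 ratio of 1.90 ± 0.23 (adjusted p = 2.52e-05). The chains of type VI collagen were also high, with COL6A1 at 1.72 ± 0.18, COL6A3 at 1.31 ± 0.16 and COL6A2 at 1.23 ± 0.15. COL3A1 (ENSG00000168542), of type III, was at 1000.0 and 1538 CPM of mRNA and 1691, 2301 and 2169 CPM of footprints, with 0.69 ± 0.19. COL4A1, of basement membranes, had the lowest ratio, -0.25 ± 0.12 (adjusted p = 0.0758). As a share of protein-coding counts, collagens held 0.839% and 1.35% in RNA-seq and 3.16%, 3.34% and 3.46% in Ribo-seq.

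Matrix glycoproteins and proteoglycans had 14 high genes and no low gene among 27 tested of 28, with a median of 1.07 relative to all genes. FN1 (ENSG00000115414) was at 3325 and 4378 CPM of mRNA and 7349, 9784 and 9511 CPM of footprints, a log2 ratio of 1.21 ± 0.17 (adjusted p = 7.42e-06). THBS1 (ENSG00000137801), thrombospondin, was at 1475 and 1393 CPM against 3841, 4106 and 4331 CPM, with 1.51 ± 0.13 (adjusted p = 2.36e-08). BGN, the proteoglycan biglycan, had the highest ratio, at 35 and 60.5 CPM of mRNA and 501, 482 and 552 CPM of footprints.

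POSTN, FBLN1 and DCN gave 1.99 ± 0.24, 2.49 ± 0.16 and 1.48 ± 0.15. SPARC (ENSG00000113140), a collagen-binding protein, was at 2106 and 1973 CPM against 2889, 3098 and 3452 CPM, a smaller excess of 0.63 ± 0.13. EFEMP2 was lowest of the class, at -0.27 ± 0.14, with overlapping assays.

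Among proteases, inhibitors and crosslinkers of the matrix, 7 of 19 were high and none low. MMP2 (ENSG00000087245), a gelatinase, was at 332 and 397 CPM of mRNA and 1249, 1274 and 1169 CPM of footprints, 3.37-fold higher. PLOD3, which hydroxylates collagen lysines, was 5.22-fold higher. TIMP1 (ENSG00000102265), a protease inhibitor, was at 717 and 757 CPM against 1199, 1410.4 and 1756 CPM, with a log2 ratio of 0.98 ± 0.15, just under the limit for a high call. LOXL1 was lowest of the list, at -0.73 ± 0.13.

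Chaperones of the endoplasmic reticulum, which fold secreted proteins, had 10 high genes of 16 (62.5%, against 14.1% of all genes) and no low gene, with a median of 1.08 relative to all genes. HSPA5 (ENSG00000044574), or BiP, was at 117 and 158 CPM of mRNA and 1061, 1117 and 1154 CPM of footprints, a log2 ratio of 3.01 ± 0.15 (adjusted p = 1.69e-11). CALR (ENSG00000179218), calreticulin, was at 865 and 725 CPM against 2417, 2501 and 2876 CPM, with 1.71 ± 0.14 (adjusted p = 1.02e-08). P4HB and HSP90B1 were at 1.87 ± 0.14 and 1.60 ± 0.14. SERPINH1 (ENSG00000149257), the collagen chaperone, lay on the limit at 1.00 ± 0.13 and was not called. CANX, calnexin, overlapped between the assays, at 844 and 833 CPM against 771, 894 and 914 CPM.

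Cytosolic chaperones had 9 high genes and 1 low gene of 20. HSP90AA1, the inducible HSP90, was at 373 and 434 CPM of mRNA and 2102, 1933 and 1731 CPM of footprints, 4.76-fold higher, whereas its constitutive relative HSP90AB1 (ENSG00000096384) was at 902 and 833 CPM against 878, 839 and 916 CPM, with overlapping assays. HSPA8 (ENSG00000109971), the constitutive HSP70, was at -0.64 ± 0.13 and has 20 named pseudogenes. HSPA1A was the low gene, at 15.9 and 13.7 CPM against 6.5, 6.96 and 7.79 CPM, and has a near-identical copy in the genome.

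The proteasome had 16 high genes and 2 low genes among 36 tested of 39, with a median of 0.89 relative to all genes. PSMC5, an ATPase of the base, was at 86.7 and 82.5 CPM of mRNA and 416, 391 and 346 CPM of footprints, 4.54-fold higher, and PSMA3 and PSMD6 were 4.5-fold and 4.05-fold higher. PSMC1 (ENSG00000100764), another ATPase, stood apart, at 165 and 158 CPM of mRNA and 0, 0.147 and 0 CPM of footprints. It had 2 footprint reads in all, both in replicate 2, a pooled ratio of 0.000382 with an exact counting interval of 4.63e-05 to 0.00138, and it has 13 named pseudogenes. PSMA1 was 2.74-fold lower.

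Glycolytic enzymes had 6 high and 2 low genes of 17, with a median of 0.99 relative to all genes. PKM (ENSG00000067225), pyruvate kinase, was at 1867 and 1706 CPM of mRNA and 7077, 5831 and 5562 CPM of footprints, a log2 ratio of 1.78 ± 0.15 (adjusted p = 1.18e-08). GAPDH (ENSG00000111640) was at 5222 and 5339 CPM against 1783, 1652 and 1983 CPM, with -1.55 ± 0.13 (adjusted p = 1.09e-08). PGAM1, phosphoglycerate mutase, was at 209.8 and 204 CPM against 2.34, 1.76 and 1.84 CPM, 105-fold lower. GAPDH has 65 named pseudogenes, PGAM1 13 and PKM 5, and the median log2 ratio of glycolytic genes with none was 1.18.

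Nuclear-encoded genes of oxidative phosphorylation had 21 high and 5 low genes among 71 tested of 74. Complex I had 11 high and 1 low of 33, complexes II and III 2 high and 3 low of 13, complex IV 4 high and 1 low of 10 and complex V 4 high and none low of 15. NDUFA1, of complex I, was 6.45-fold higher, and COX4I1, of complex IV, 2.88-fold higher. ATP5F1B (ENSG00000110955), the catalytic subunit of ATP synthase, was at 723 and 657 CPM of mRNA and 1349, 1356 and 1421 CPM of footprints, a log2 ratio of 1.00 ± 0.12, and lay on the limit without a call. SDHD, of complex II, was 30.3-fold lower and has 7 named pseudogenes.

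Mitochondrial ribosomal proteins had 21 high and 6 low genes among 76 tested of 78, with a median of 0.60 relative to all genes. MRPS5 had the highest ratio, with 2.95 and 1.57 CPM of mRNA and 72.6, 73.9 and 70.4 CPM of footprints. MRPS17 had the lowest, with 8.72 and 9.7 CPM against 0.106, 0 and 0.216 CPM.

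The 13 proteins encoded in mitochondrial DNA are made by mitochondrial ribosomes, which cycloheximide does not stall. They spread from a log2 ratio of -4.18 in MT-CO3 to 4.38 in MT-ND6, with 4 high and 2 low. MT-CO1 (ENSG00000198804), of complex IV, was at 1386 and 1804 CPM of mRNA and 173, 228 and 219.6 CPM of footprints, 7.71-fold lower. MT-CYB (ENSG00000198727), of complex III, was at 31.8 and 54 CPM against 94.5, 117 and 136 CPM, a log2 ratio of 1.44 ± 0.27 (adjusted p = 0.00319). Counted without strand, MT-CYB was at 0.48 and not high. MT-ND6, which is on the other strand of the same genome, was at 3.27 and 3.14 CPM of mRNA and 47.9, 82.9 and 69.3 CPM of footprints. MT-ND4 (ENSG00000198886) was at 122 and 233 CPM against 40.1, 52.8 and 109 CPM, with -1.40 ± 0.61 (adjusted p = 0.123). Without Ribo-seq replicate 3 it was called, at -1.93. All 13 genes have named pseudogenes, at a median of 37, with 58 for MT-CO1, 45 for MT-CYB and 40 for MT-ND4. The part of these copies in the ratios was not tested.

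Actin and contractile genes had 12 high and 2 low genes of 31. TAGLN (ENSG00000149591), a smooth-muscle actin crosslinker, was at 1319 and 1171 CPM of mRNA and 3241, 2988 and 3189 CPM of footprints, 2.52-fold higher, with a log2 ratio of 1.33 that was 2.03 without strand. MYL6, a myosin light chain, was at 1012 and 919 CPM against 2038, 2215 and 2141 CPM, and ACTA2 and ACTN4 were 3.14-fold and 3.64-fold higher. ACTB had a smaller excess, 0.60 ± 0.14, at 5463 and 5031 CPM against 8299, 7091 and 8435 CPM. The thymosins, short actin-binding peptides, differed: TMSB10 (ENSG00000034510) overlapped, at 3642 and 3265 CPM against 3030.0, 3365 and 3439 CPM, and TMSB4X was at 2439 and 2113 CPM against 115, 88.1 and 127 CPM, 20.7-fold lower. TMSB4X has 8 named pseudogenes and TMSB10 has 2.

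Tubulins and intermediate filaments had 4 high and 4 low genes of 16. VIM (ENSG00000026025) was at 4661 and 5197 CPM of mRNA and 10616, 8885 and 9281 CPM of footprints, a log2 ratio of 0.96 ± 0.14 (adjusted p = 1.21e-05). LMNA, the A-type lamin, was 3.39-fold higher. TUBA1B (ENSG00000123416), an alpha-tubulin, was at 2262 and 2143 CPM against 449.5, 360.3 and 437 CPM, 5.3-fold lower, and TUBA1C and TUBA1A were also low. These alpha-tubulins are near-identical in their coding part, so their split between copies is uncertain, and TUBA1B moved to a log2 ratio of -0.85 when counted without strand.

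Replication-dependent histones had 30 high genes and 7 low genes among 58 tested of 66 and the highest class median, 1.09 relative to all genes. These mRNAs end in a stem-loop and lack a poly(A) tail, and their copies are near-identical. The labels' protocols record a depletion of rRNA and name no poly(A) selection for RNA-seq. H2AC6 was at 197 and 161 CPM of mRNA and 1266, 1117 and 992 CPM of footprints, 6.29-fold higher, and H4C5 was at 297 and 258 CPM against 953, 966 and 961 CPM. H2AC17 (ENSG00000278677) had no RNA-seq read and 153, 117 and 138 CPM of footprints, at least 2174-fold higher against a floor of 3 counts over the RNA-seq libraries together. H2BC12 overlapped, at 231 and 168 CPM against 191, 197 and 281 CPM, and H4C11 was low, at 10.2 and 8.82 CPM against 0.319, 0.0733 and 0.216 CPM.

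DNA replication genes had 13 high genes and 1 low gene of 35, with a median of 0.72 relative to all genes. PCNA (ENSG00000132646), the sliding clamp, was at 129 and 101 CPM of mRNA and 306, 281 and 251 CPM of footprints, 2.42-fold higher. MCM3 (ENSG00000112118), of the replicative helicase, was at 83.6 and 60.6 CPM against 174, 146 and 158 CPM, 2.2-fold higher, and MCM2, MCM4, MCM5, MCM6 and MCM7 were high too. Without RNA-seq replicate 2, MCM3 was at a log2 ratio of 0.93 and not high. RRM2, a ribonucleotide reductase subunit, was at 0.50 ± 0.12.

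Mitosis genes had 5 high genes (17.2%, against 14.1% of all genes) and 1 low gene among 29 tested of 30. CCNB1 (ENSG00000134057), cyclin B1, was at 198 and 163 CPM of mRNA and 409, 409.8 and 363 CPM of footprints, with a log2 ratio of 1.12 ± 0.13, and was not high without RNA-seq replicate 2 (0.99). MKI67, the Ki-67 protein, was at 139 and 157 CPM against 212, 188 and 228 CPM, with 0.50 ± 0.12. CENPA, the centromeric histone, was low at 25 and 23 CPM against 13.7, 8.87 and 13.5 CPM, just past the limit.

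Zinc finger genes with ZNF symbols, most of them transcription factors that vertebrates hold in large families, carried few footprints. Of 449 tested out of 508, 219 were low (48.8%, against 19.4% of all genes) and 11 high. The fitted median was -0.97 relative to all genes. Medians over the 6 library pairs were -0.92 to -0.86, so the fitted value lies outside the range of single pairs. ZNF106 was at 386 and 361 CPM of mRNA and 127, 136 and 124 CPM of footprints, 2.9-fold lower. ZNF664 was at 151 and 133 CPM against 27.1, 24.3 and 28.6 CPM, and ZNF532 at 124 and 142 CPM against 15.8, 20.4 and 18.5 CPM. Of the 449, 429 have no named pseudogene, and the median log2 ratio of these was -0.97. That number does not count likeness between ZNF genes, and the cause of their low ratios was not tested. The share of protein-coding counts was 1.02% and 1.02% in RNA-seq and 0.509%, 0.521% and 0.496% in Ribo-seq.

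Immediate early genes, which serum and stress induce within minutes, had 7 high and 4 low genes among 26 tested of 27. CCN1 (ENSG00000142871), a secreted matricellular protein, was at 101 and 70.7 CPM of mRNA and 504, 425 and 543 CPM of footprints, 5.71-fold higher, and its relative CCN2 (ENSG00000118523) was at 215 and 181 CPM against 703, 669.8 and 726 CPM, 3.53-fold higher. JUN, EGR1 and MYC, transcription factors, were 2.56-fold, 3.13-fold and 2.5-fold higher. SRF, which drives many of these genes, was 3.87-fold lower. FOS was at 2.22 and 5.98 CPM against 2.02, 2.56 and 3.35 CPM, with -0.60 ± 0.42 (adjusted p = 0.224). Its RNA-seq libraries differed: without replicate 1 it was low at -1.17 (edgeR adjusted p = 0.00376), and without replicate 2 it was at 0.25 (adjusted p = 0.56).

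Targets of p53 had 1 high (4.17%, against 14.1% of all genes) and 6 low genes (25%, against 19.4%) of 24. CDKN1A (ENSG00000124762), the cell cycle inhibitor p21, overlapped between the assays, at 747 and 778 CPM against 762, 618 and 657 CPM. MDM2 (ENSG00000135679), the ligase that degrades p53, was at 357 and 343 CPM of mRNA and 191, 207 and 181 CPM of footprints, with -0.86 ± 0.11. BAX, which opens the outer mitochondrial membrane, was the high gene, at 2.76-fold, and AEN was the lowest, at 3.29-fold lower.

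Splicing regulators, the SR proteins and hnRNPs, had 7 high and 4 low genes of 27. HNRNPA2B1 was at 316 and 336 CPM of mRNA and 1789, 1759 and 1792 CPM of footprints, 5.46-fold higher, and SRSF5 (ENSG00000100650) was at 72.2 and 73 CPM against 223, 220.1 and 189.9 CPM, 2.91-fold higher. SRSF3 (ENSG00000112081) overlapped, at 339.6 and 314 CPM against 326, 319 and 344 CPM. HNRNPK and HNRNPDL were at -0.26 ± 0.12 and 0.68 ± 0.11. SRSF1 was the lowest, at 156 and 133 CPM against 1.81, 1.1 and 4.65 CPM. None of the 4 CLK kinases, which phosphorylate SR proteins, was called, and CLK1 was at 0.70 ± 0.13.

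Cholesterol synthesis and uptake genes had 7 high genes and 1 low gene of 22. HMGCS1 (ENSG00000112972), an early enzyme, was at 96.3 and 82.7 CPM of mRNA and 216, 215 and 228 CPM of footprints, 2.45-fold higher. INSIG1, which holds the sterol sensor in the endoplasmic reticulum, was the low gene, at 261 and 238 CPM against 46.8, 49.2 and 62.5 CPM.

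Integrins, which anchor cells to the matrix, had 1 high and 2 low genes among 14 tested of 26 and a median of 0.61 relative to all genes, with ITGB1, the main beta chain, at 0.27 ± 0.13, and ITGB3 59.9-fold lower. Solute carriers had 21 high (11.4%) and 28 low (15.2%) genes among 184 tested of 337, against 14.1% and 19.4% of all genes. Their median was -0.06 relative to all genes (0.07 with no filter on low counts). SLC3A2 and SLC38A2, which serve amino acid transport, were 3.21-fold and 2.04-fold higher. HOX genes, which set position along the body axis, had 5 high and 2 low among 16 tested of 39, with HOXB5 5.65-fold higher and HOXB3 3.62-fold lower.

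The most extreme genes with a mean of at least 50 CPM were listed without regard to class. The 10 with the lowest ratio were PSMC1, RPL39, RPS28, RPS3A, RPL7, RPL21, PGAM1, RPS26, TMEM183A and RPS27. Each has at least 6 named pseudogenes. TMEM183A, a membrane protein gene, was at 104 and 102 CPM of mRNA and 2.13, 1.03 and 1.3 CPM of footprints, and has 6.

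The 10 with the highest ratio included H2AC17, IMPDH2, HSPB6, GABARAP, CDC42, ATIC, PPP2CA, RAB11B and LDOC1. IMPDH2 (ENSG00000178035), an enzyme of guanine nucleotide synthesis, was at 0.492 and 0.294 CPM of mRNA and 256, 260.4 and 283 CPM of footprints. CDC42 (ENSG00000070831), a small GTPase of cell polarity, was at 2.99 and 2.6 CPM against 87.9, 99.7 and 116 CPM, and PPP2CA, the catalytic subunit of a main phosphatase, at 17.4 and 16.4 CPM against 301, 295 and 268 CPM. In thapsigargin-treated cells, where 1 gene list serves both assays, the log2 ratio was -6.36 for IMPDH2, -8.56 for CDC42 and -0.63 for PPP2CA. In cycling cells it was 9.32, 5.16 and 4.09. Here and in the next paragraph, thapsigargin values are from a fit over all 27 libraries and cycling values from the fit of 5. In the fit over all 27, these 3 genes were at 9.28, 5.12 and 4.04 in cycling cells.

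GABARAP (ENSG00000170296), an autophagy protein, was at 2.81 and 2.45 CPM of mRNA and 108, 119 and 131 CPM of footprints, with a log2 ratio of 5.49 in cycling and 3.93 in thapsigargin-treated cells. ATIC, of purine synthesis, was at 13 and 20.4 CPM against 307, 313 and 306 CPM, and HSPB6, a small heat shock protein, at 2.46 and 5.88 CPM against 344, 258 and 211 CPM. Their log2 ratios were 4.22 and 6.07 in cycling and 3.96 and 5.52 in thapsigargin-treated cells. Without RNA-seq replicate 2, HSPB6 was at 6.78. Counted without strand, IMPDH2 was at 6.18, HSPB6 at 7.46 and GABARAP at 7.30, so the sizes of these ratios depend on the strand counted. RAB11B, of recycling endosomes, and LDOC1 were at 3.98 and 3.80 in cycling and 3.18 and 3.34 in thapsigargin-treated cells.

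Noncoding RNAs, which are not thought to be translated in the main, were taken as a background. In a fit over all shared IDs, 555 lncRNA genes had a median log2 ratio of -0.83 relative to protein-coding genes, with 54 high and 248 low. Of all 13033 IDs tested in that fit, 16.7% were high and 20.6% low. MALAT1 (ENSG00000251562), a nuclear RNA, was at 661 and 753 CPM in RNA-seq and 131, 157 and 229.6 CPM in Ribo-seq, a log2 ratio of -2.01 ± 0.22. NEAT1 (ENSG00000245532), the scaffold of paraspeckles, was at 33.7 and 42.0 CPM against 2.24, 3.52 and 7.68 CPM, with -3.07 ± 0.45. All 6 nuclear lncRNAs tested were low, with a median of -2.64 relative to protein-coding genes. The median log2 ratio of these 6, not taken relative to other genes, was -2.63 in this fit. FTL and EEF1A1 were at -5.14 and -5.71 in the fit of protein-coding genes, which is scaled separately. They have 20 and 50 named pseudogenes, whose part in those values was not tested.

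Host genes of small nucleolar RNAs are spliced RNAs with short reading frames, and several carry a TOP start. Of 26 tested in the fit over all shared IDs, 5 were high and 12 low, against 16.7% high and 20.6% low of all IDs there. GAS5 (ENSG00000234741) was at 207 and 184 CPM in RNA-seq and 288, 383 and 987 CPM in Ribo-seq, with 1.52 ± 0.72 (adjusted p = 0.150). SNHG1 was at 47.9 and 41.5 CPM against 427, 523 and 739 CPM, and SNHG16 at 451 and 424 CPM against 42.4, 29.8 and 40.1 CPM. Small nucleolar RNAs lie in the introns of these hosts, and reads from them and from footprints were not told apart.

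The other 4 states gave ratios from libraries that the cycling comparison did not use. Of the 1656 genes high in cycling cells, the ratio was at least 2 in 1409 (85.1%) in quiescent, 1334 (80.6%) in irradiated, 1230 (74.3%) in etoposide-treated and 963 (58.2%) in thapsigargin-treated cells. Of the 2274 low genes, the ratio was at most 0.5 in 2017 (88.7%), 1917 (84.3%), 2040 (89.7%) and 1859 (81.8%). Among genes with neither call, a ratio of at least 2 was found in 2.19 to 9.06% and of at most 0.5 in 4.46 to 21.6%. These are descriptions from a fit over all libraries, with no test of a difference between states. Ribo-seq of quiescent, irradiated and etoposide-treated cells follows the same list of 60664 IDs as cycling Ribo-seq. A ratio that comes from the lists or the counting would recur in these states, and its part was not tested. IMPDH2 had log2 ratios of 9.91, 11.3 and 12.7 there, and of -6.36 in thapsigargin-treated cells.

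Ribosomal proteins, relative to all genes, had a fitted median of -1.26 in thapsigargin-treated cells, where library pairs gave -1.25 to -1.13, against -1.94 to -1.46 in cycling pairs. ZNF genes were at -0.76 to -0.48 in thapsigargin pairs. Collagens, at 0.26 to 0.75 in cycling pairs, were at -1.01 to -0.76 in thapsigargin pairs. Pairs of quiescent libraries spread widely for collagens, from -0.69 to 2.16. The thapsigargin Ribo-seq libraries held 1936976 and 2044900 gene counts and follow the longer gene list, so treatment, depth and list cannot be told apart there.

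**Figure D5:**
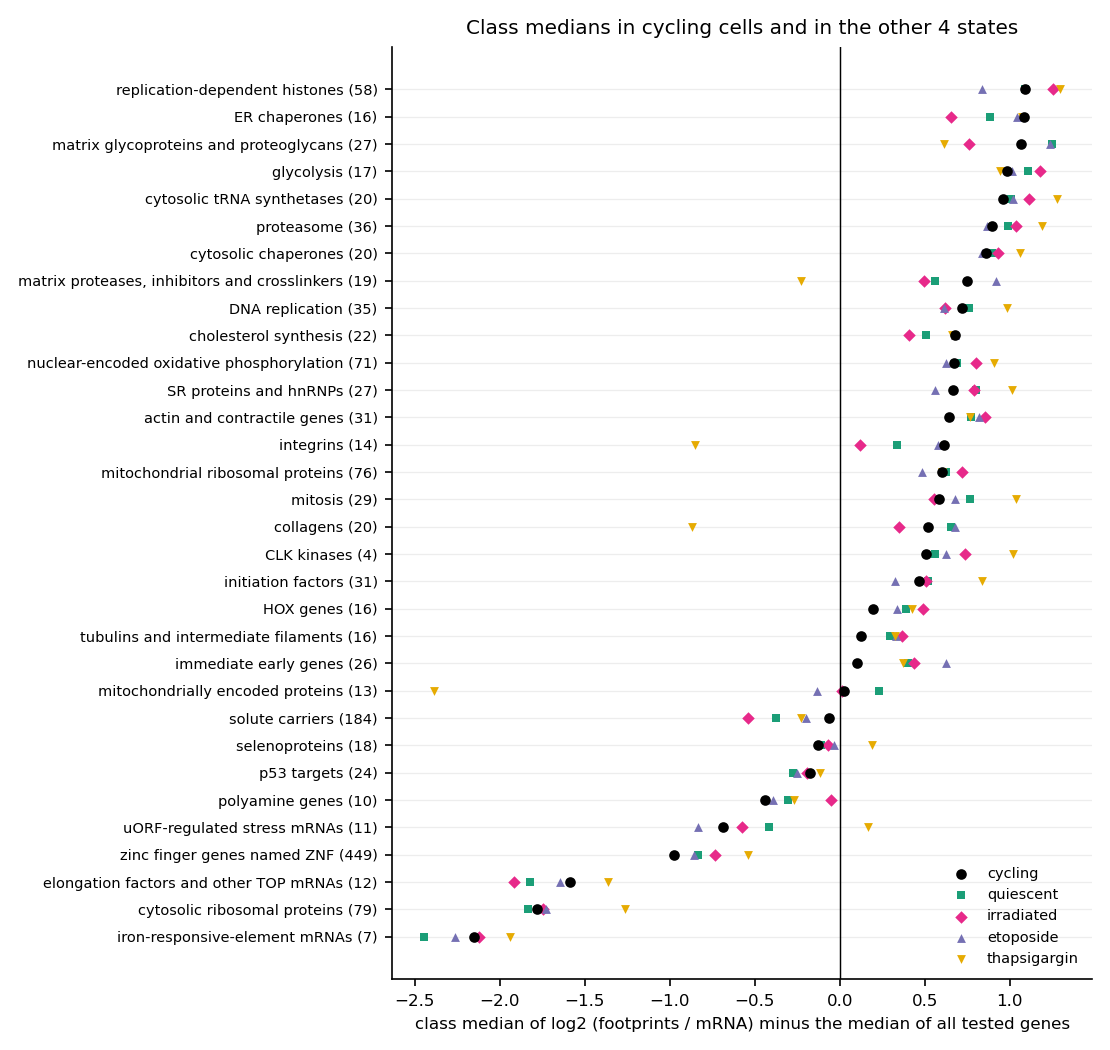
Median log2 ratio of footprints to mRNA relative to all genes (x axis) for each gene class (y axis) in cycling cells and in the 4 other states, 1 mark per state. Collagens and integrins are above 0 in cycling cells and at -0.87 and -0.85 in thapsigargin-treated cells.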

How the data were processed

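RNA-seq and Ribo-seq libraries of cycling IMR90 cells were compared. The authors deposited, for each library, whole-number counts per gene ID as STAR tabulates them, without scaling, and the submitters' processing notes name STAR 2.7.10b, DESeq2 1.36.0 and the build hg38. Read trimming and the annotation behind each gene list are not given in the sources used here. Per the labels' protocols, rRNA was depleted, and libraries were made with a TruSeq stranded kit for RNA-seq and a NEBNext small RNA kit for Ribo-seq.

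The strand column that fits each kit was used, reverse for RNA-seq and forward for Ribo-seq, and the opposite strand held 3.56 to 10.7% of the counts on both strands over the series. Summary lines were not used: reads overlapping several genes were 11.4% and 10.7% of uniquely mapped reads in RNA-seq and 5.5 to 7.3% in Ribo-seq. Of 60534 shared IDs, 60461 had a symbol and 40537 matched the RefSeq table (GRCh38.p14) by symbol, 19320 of them protein coding. Counts were fitted with edgeR 4.0.16 in R 4.3.3 (TMM scaling, robust quasi-likelihood F test, two-sided) over the 5 cycling libraries, keeping genes whose mean of the assay means was at least 1 CPM. Adjusted p is by Benjamini-Hochberg over 11736 genes. The SE is the log2 ratio divided by the square root of its F statistic. The biological coefficient of variation was 0.109. The fit was tested on simulated data first.

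Pseudogenes of a gene are RefSeq pseudogenes named with its symbol, P and a number. Lists describe 32 classes by counts and medians, with no test. Members and lists were chosen with earlier results of these data known. The genes named are key genes marked in the lists, the 10 highest and 10 lowest called genes with a mean of at least 50 CPM, and the 5 with most reads in each assay. Other genes were chosen after their values were seen, as the extremes or largest members of a class. Some genes the rule names are not reported here. Ratios by coding length, which were planned, were not analysed here. Alternatives were DESeq2 1.42.0, edgeR's test against a fold limit (glmTreat), other scalings and filters, counts without strand, a replicate block and each library left out in turn. Results without genes that have a named pseudogene are a subset of the main fit, not a new fit, and were added after the data were seen.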

Additional observations from a re-analysis of the deposited data

Results flagged for a closer look

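In 4 gene classes every pair of an RNA-seq and a Ribo-seq library gave a class median, relative to all genes, on one side of 0 in cycling cells and on the other side in thapsigargin-treated cells. The difference between states was not tested. The median of collagens was 0.52 in cycling cells (0.26 to 0.75 over 6 pairs) and -0.87 with thapsigargin (-1.01 to -0.76 over 4 pairs). That of integrins was 0.61 (0.42 to 0.66) and -0.85 (-1.06 to -0.89). Matrix proteases, inhibitors and crosslinkers were at 0.74 (0.62 to 0.81) and -0.23 (-0.34 to -0.26). The mRNAs with upstream reading frames went the other way, from -0.69 (-0.73 to -0.54) to 0.16 (0.10 to 0.27). DDIT3 had a log2 ratio of -1.61 in cycling and 0.02 in thapsigargin-treated cells, PPP1R15A -0.90 and 1.05, and ATF4 -1.50 and -0.81. IFRD1, at -4.08 and -4.17, and SLC35A4, at -0.44 and -0.42, changed little. Cycling medians and ratios here are from the fit of the 5 cycling libraries, and those with thapsigargin from the fit over all 27. Pairs are of single libraries, so a fitted median can lie outside their range. The thapsigargin Ribo-seq libraries had 65.2% and 66.9% of reads mapping to several places and follow another gene list than the cycling Ribo-seq libraries, so treatment and counting cannot be told apart.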

How the results depend on the processing

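With 2 RNA-seq libraries, 1 library can move a ratio, and within-assay depth limits genes of a few CPM. Leaving out each library in turn gave 1652 to 1712 high and 2241 to 2324 low genes. A test against a ratio of 2 itself (glmTreat) called 985 high and 1607 low. DESeq2 called 1702 and 2221, library totals as scaling 1324 and 2644, and no filter on low counts 1854 and 2623. Of the calls of the main fit, 1400 high and 1732 low genes had no named pseudogene. Replicate numbers are shared by the assays, but nothing says that they pair samples. Deviations of same-numbered libraries had r of 0.147 and 0.175. With 2 RNA-seq libraries, the deviations of 1 mirror those of the other, so these values are not independent. With the replicate block, 1712 genes were high and 2341 low, 1607 and 2213 of them among those of the unblocked fit, and COL1A1 was not called (adjusted p = 0.0611).

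Without genes that have a named pseudogene, class medians were taken relative to all tested genes without one. They were -0.17 for elongation factors and other TOP mRNAs, -0.84 for iron-responsive-element mRNAs and 0.87 for tRNA synthetases. For iron-responsive-element mRNAs, that value lies between genes with the element before and after the coding part. Leaving out each library gave -2.26 to -2.02 for iron-responsive-element mRNAs, 0.89 to 0.98 for tRNA synthetases, -0.25 to 0.12 for mitochondrially encoded proteins and -0.015 to 0.22 for tubulins and intermediate filaments. Mitochondrially encoded proteins were at -0.23 with unstranded counts and -0.22 with the replicate block, and solute carriers at 0.067 with no filter. The cause of these moves was not tested.

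Genes with log2 ratios close to 0 changed sign. HSP90AB1 was at -0.036 with all 27 libraries in the fit, -0.11 with library totals, -0.011 unstranded and -0.014 with the replicate block. SRSF3 was at -0.042, -0.12, -0.014 and -0.020 in the same order, at -0.0033 with at least 1 CPM in each assay and -0.0044 with no filter. Without 1 library, HSP90AB1 was at -0.039 to 0.078, SRSF3 at -0.042 to 0.070, TMSB10 at -0.15 to 0.0075 and FOS, at -0.60 with all libraries, at -1.17 to 0.25. TUBA1B was no longer low with unstranded counts (-0.85), and CCNB1 no longer high with library totals (0.99). Unstranded counts also moved RPS3A from -8.44 to -7.61 and PSMC1 from -11.18 to -10.08. PSMC1 was at -14.41 without Ribo-seq replicate 2, which held both of its footprint reads; against 0 reads, that fitted value depends on the prior count and is no bound. MT-ND4 was low with all 27 libraries (-1.45) and with the replicate block (-1.89).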
